A study of Mus musculus with 18 samples.

Results

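The comparison described here is that of alveolar type II cells lacking Cebpa with control type II cells after 24 h of hyperoxia, a raised oxygen concentration in the inspired air. It uses 6 of the 18 expression arrays in the study: the 3 Cebpa-deleted arrays titled for 24 h with replicate numbers 1, 2 and 4, and the 3 control arrays titled for 24 h with numbers 1, 2 and 3. The deleted mice carried the genotype given as CCSP/rtTA/CEBPa(flx/flx), and the controls were CEBP/a(flx/flx) littermates without rtTA or without Cre, so that every mouse in both groups had floxed Cebpa alleles. By the study design Clara cells lost Cebpa early in gestation, whereas type II cells lost it only near term, so airway cells of the deleted mice lacked it too, and the cells were taken from mice 7 to 8 weeks old. The time comes from the array titles and hyperoxia from the series design, whereas each sample's description names air. The remaining 12 arrays are the same genotypes at 0 and 2 h, with 3 arrays in each group. Nothing in the labels says that the 3 arrays of a group came from separate animals, so the p-values measure only the spread between these samples, which may be technical.

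C/EBPα is a basic leucine zipper transcription factor that drives terminal differentiation and lipid metabolism in liver, fat and myeloid cells. In the lung it is expressed in type II cells, which make and recycle surfactant, a film of phospholipid and the proteins SP-A to SP-D that keeps alveoli open, and which also secrete defence proteins and renew the flat type I cells. Surfactant lipid is built from fatty acids and cholesterol whose synthesis is controlled by the SREBP transcription factors, and high oxygen injures these cells through oxidants.

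Expression values are log2 numbers made by RMA, 1 deposited row for each of 19938 genes, and a change is the mean of the 3 deleted arrays minus the mean of the 3 control arrays in log2 units. A gene was called when its limma p-value, adjusted over all genes, was below 0.05. The deleted arrays at 24 h had a narrower range of values than the controls: the interquartile range was 1.945 ± 0.163 (SD, n = 3) against 2.47 ± 0.044 (SD, n = 3), and it was 1.885, 1.820 and 2.129 on deleted replicates 1, 2 and 4. All 3 deleted ranges lay below all 3 controls, and replicates 1 and 2 were the narrowest. The change of a gene moved with its level. With genes cut into 10 equal classes by mean level, the median change was 0.21 in the lowest class and -0.36 in the highest, and the median over all genes was 0.05. In all, 10110 genes were called, which was 50.7% of those tested, with 4852 higher (24.3%) and 5258 lower (26.4%) in deleted cells. A count of members of a list must be read against these shares and against the level of its genes. In the lowest of the 10 classes 618 of 1994 genes were called higher and 14 lower. In the highest class 53 of 1994 were called higher and 1316 lower, so most bright genes were called lower as deposited. The 3 deleted arrays lay above all 3 controls for 31.7% of genes and below them for 30.4%, so groups that do not overlap are common here.

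**Figure D1:**
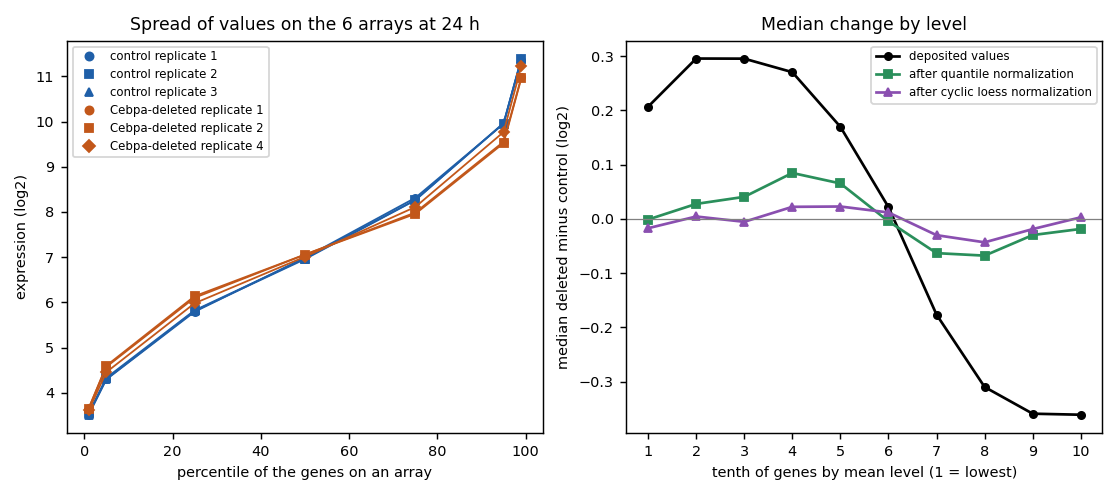
Left, log2 expression at the 1st, 5th, 25th, 50th, 75th, 95th and 99th percentile of genes on each of the 6 arrays at 24 h. Right, median deleted minus control difference (log2) in 10 equal classes of genes by mean level, as deposited and after quantile or cyclic loess normalization. The deleted arrays are higher at the low end and lower at the high end, and the deposited median change runs from 0.21 in the lowest class to -0.36 in the highest.

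Gene lists and some of the leading genes are therefore also given after quantile normalization, which gives all arrays the same distribution. Some genes are given as the percentile rank within each array, which a change of range leaves as it is. Where no other setting is named, values are as deposited, among them the sizes of the largest rises. Of the 156 named genes called as deposited, 149 were also called after quantile normalization, and those that were not, Cebpe, Ddit3, Sftpb, Hopx, Ager, Epcam and Cd68, are given with both values. The rule for naming the leading genes required that call, so this count is raised by the choice. Over all genes, 4912 of the 10110 called as deposited kept their call and direction. After quantile normalization 6697 genes were called (33.6%), 3288 of them higher (16.5%) and 3409 lower (17.1%). Before and after it 4912 genes were called in the same direction (24.6%), 2275 higher and 2637 lower, and 0 genes were called in opposite directions. By cyclic loess, another normalization chosen after the data were seen, 4897 genes were called (24.6%). On percentile ranks 6307 genes were called (31.6%). The split of calls by direction differed between settings: 48.0% were to the higher side as deposited, 37.3% after each array was centred on its median, 22.5% when only the brighter 60 percent of genes were tested, and 16.1% without deleted replicates 1 and 2. Scaling every array to a common interquartile range shifted the median over all genes from 0.05 to -0.06 and stretched the brightest genes of the deleted arrays, so that the differences of several surfactant genes changed sign, as given with them. Leaving out deleted replicate 2 alone gave 6128 calls. Without deleted replicates 1 and 2, a setting chosen after the data were seen that leaves 1 deleted array, 217 genes were called (1.09%), 35 higher and 182 lower. When each array's interquartile range entered the model as a covariate, 4 genes were called, Morc4, Col12a1 and Ctsz lower and Vsig2 higher (0.83, against a deposited difference of -0.30 that was not called), and 1561 genes had an unadjusted p below 0.05 in limma. The part of the array range in the results below was not tested beyond these settings. In bulk RNA such as this, fewer cells of a type and less RNA per cell cannot be told apart.

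Cebpa itself read 10.45, 10.12 and 10.22 on the control arrays and 8.66, 8.26 and 8.38 on the deleted arrays. All deleted arrays lay below all controls, and the gene kept a level above most genes on the deleted arrays, at a mean percentile rank of 82.6 against 96.4 in controls. The change was -1.83 (SE 0.18, adjusted p = 8.19e-06), 28.1% of the control level, and -1.54 after quantile normalization. The position of its probes against the floxed exons is unknown here, so undeleted cells and transcript from outside the deletion cannot be told apart as sources of the remaining signal. The change was -1.89 without deleted replicates 1 and 2, and -1.30 (adjusted p = 0.138) in the model that included the range.

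The other members of the family, which bind the same type of site as dimers, showed smaller differences than Cebpa. Cebpb, a stress and acute phase activator, had a difference of -0.26 (adjusted p = 0.0593) and of 0.08 after quantile normalization. Cebpd, induced in inflammation, was at -0.23 (adjusted p = 0.284), and Cebpg, a partner without its own activation domain, at -0.21 (adjusted p = 0.138). Ddit3, the stress-induced member also called CHOP, fell by 0.28 (adjusted p = 0.0483) and Cebpe, a granulocyte factor, rose by 0.31 (adjusted p = 0.0365). Neither of these calls stood after quantile normalization, where the changes were -0.02 and 0.17, and leaving out 1 array at a time kept them in 2 and 1 of 6 fits.

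The promoters of the genes that fell and rose most show what sites lie near their starts. C/EBP proteins bind a palindrome whose core letters are TTGCNNAA, which reads TTNNGCAA on the other strand, and each window runs from 250 bases before to 50 after the RefSeq start on GRCm38.p6, 5′ to 3′ on the strand of the gene, with a match of either form in capitals. The first 4 are from the largest falls that the table holds, Il6 was added after its values were seen, and Il7r is the first of the rises.
Lcn2 (chr2:32387690-32387989, reverse strand): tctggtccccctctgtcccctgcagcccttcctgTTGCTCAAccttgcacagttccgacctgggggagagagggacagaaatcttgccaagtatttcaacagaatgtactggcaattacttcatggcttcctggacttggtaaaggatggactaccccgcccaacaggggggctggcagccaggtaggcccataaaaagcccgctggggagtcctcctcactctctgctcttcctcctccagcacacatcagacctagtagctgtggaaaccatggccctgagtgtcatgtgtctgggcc
Itih4 (chr14:30886226-30886525, forward strand): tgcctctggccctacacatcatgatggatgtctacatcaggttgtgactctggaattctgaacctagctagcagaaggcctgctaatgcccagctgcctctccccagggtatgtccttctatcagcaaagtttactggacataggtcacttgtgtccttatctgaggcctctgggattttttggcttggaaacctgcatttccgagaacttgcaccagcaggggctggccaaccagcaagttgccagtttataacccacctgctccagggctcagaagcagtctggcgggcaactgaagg
Chil1 (chr1:134181906-134182205, forward strand): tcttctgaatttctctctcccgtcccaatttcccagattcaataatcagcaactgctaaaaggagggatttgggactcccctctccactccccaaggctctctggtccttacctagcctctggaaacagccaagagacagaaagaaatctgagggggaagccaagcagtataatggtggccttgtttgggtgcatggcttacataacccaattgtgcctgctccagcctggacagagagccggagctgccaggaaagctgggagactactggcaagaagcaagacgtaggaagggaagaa
Chia1 (chr3:106113132-106113431, forward strand): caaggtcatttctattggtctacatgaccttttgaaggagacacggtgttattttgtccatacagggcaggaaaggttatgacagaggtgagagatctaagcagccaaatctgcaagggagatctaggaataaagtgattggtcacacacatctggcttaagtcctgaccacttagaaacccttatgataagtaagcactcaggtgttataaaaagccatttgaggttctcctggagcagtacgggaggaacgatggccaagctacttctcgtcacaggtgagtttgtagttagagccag
Il6 (chr5:30012864-30013163, forward strand): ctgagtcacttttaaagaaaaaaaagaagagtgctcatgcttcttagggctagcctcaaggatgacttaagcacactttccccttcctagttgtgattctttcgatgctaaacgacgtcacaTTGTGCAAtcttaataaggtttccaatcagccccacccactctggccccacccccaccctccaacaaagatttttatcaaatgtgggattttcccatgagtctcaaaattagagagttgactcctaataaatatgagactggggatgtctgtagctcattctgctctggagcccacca
Il7r (chr15:9529827-9530126, reverse strand): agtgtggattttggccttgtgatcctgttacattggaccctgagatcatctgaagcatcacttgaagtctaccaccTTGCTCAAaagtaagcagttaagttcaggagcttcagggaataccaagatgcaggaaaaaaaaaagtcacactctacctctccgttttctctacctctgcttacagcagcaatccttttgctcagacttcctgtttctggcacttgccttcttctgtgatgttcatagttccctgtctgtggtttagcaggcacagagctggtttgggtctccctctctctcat
Lcn2 had the match TTGCTCAA at -216, Il6 had TTGTGCAA at -128, and Il7r, which rose, had TTGCTCAA at -174. Itih4, Chil1 and Chia1 had no match, which says only that these letters are not in those windows. Of the 15 largest falls, 12 had a promoter in the table and 3 of these held the motif. The motif was in 1506 of 15563 promoters of tested genes (9.68%), in 8.76% of promoters of genes lower before and after quantile normalization and in 9.91% of those higher. A match is a description of the letters and not a shown site of binding.

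The 15 largest falls were led by genes of secreted defence proteins, and the smallest of the 15 was a change of -1.85 for Scel. Lcn2 encodes lipocalin 2, which starves bacteria of iron by binding their siderophores. It read 11.83, 12.01 and 11.61 in control and 9.65, 8.77 and 9.81 in deleted cells. The groups did not overlap, the change was -2.40 (SE 0.22, adjusted p = 6.92e-06), and after quantile normalization it was -2.12, with a mean rank of 99.5 in controls and 93.2 in deleted cells. Itih4, an acute phase protein, read 10.08, 10.51 and 9.85 against 7.92, 7.48 and 8.65, a change of -2.13 (SE 0.32), and -1.94 after quantile normalization. Chil1, a chitinase-like glycoprotein, read 11.37, 11.11 and 11.10 against 9.41, 8.55 and 9.25, a change of -2.12 (SE 0.43), and -1.82 after quantile normalization. The groups were apart for both genes. Chia1, the acidic chitinase that digests chitin in the airways, read 10.99, 10.71 and 10.55 against 8.55, 8.45 and 9.15, a change of -2.04 (SE 0.21), and -1.76 after quantile normalization. Deleted replicate 2 was the lowest array for all 4 genes.

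Among the other large falls were those of a cytokine, a cytokine receptor and a costimulatory ligand. Il6, the cytokine that induces the acute phase response, read 8.54, 8.84 and 8.49 in controls and 6.44, 6.33 and 7.17 in deleted cells, a change of -1.98 (SE 0.22, adjusted p = 2.19e-05), and its mean percentile rank fell from 80.6 to 38.6, with a change of -2.18 after quantile normalization. Tnfsf9, the ligand of the costimulatory receptor 4-1BB, had the largest fall in percentile rank of any called gene, from 82.0 to 39.5, with values of 8.82, 8.63 and 8.67 against 6.51, 6.22 and 7.29 and a change of -2.22 after quantile normalization. Il13ra2, a decoy receptor for interleukin 13, read 6.67, 6.18 and 5.85 against 4.38, 4.04 and 4.44 and went from rank 33.8 to 3.6, near the floor of the arrays. The groups were apart for all 3 genes. C6, a component of the complement membrane attack complex, fell (-1.98), as did Itga9, an integrin subunit (-1.95), S100g, a calcium-binding protein (-1.93), and Vnn1, a pantetheinase (-1.87).

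Ndnf, a secreted neurotrophic and angiogenic factor, fell (-2.02), as did Pof1b, an actin-binding protein of epithelial junctions (-2.01). Morc4, a nuclear ATPase that reads histone marks, had the smallest adjusted p of all genes (1.39e-07): it read 9.12, 9.06 and 9.12 in controls and 7.19, 7.23 and 7.28 in deleted cells. The 3 arrays of each group were nearly equal, the change was -1.87, and it was -1.47 (adjusted p = 0.00799) in the model that included the range. Scel, which encodes sciellin of the cornified envelope, fell by 1.85, from 6.96, 7.61 and 7.31 to 5.37, 5.64 and 5.32. Other large falls in rank were those of Zfp711, a zinc finger protein (72.6 to 30.9), Cped1 (78.8 to 42.3), the potassium channel Kcnj2 (64.9 to 29.2) and the calcium channel Trpv6 (79.6 to 44.5). With those narrowest arrays, deleted replicates 1 and 2, left out, Lcn2, Morc4 (-1.82), Il13ra2 (-1.79), C6 (-1.79), Pof1b (-1.72), Ndnf (-1.68), Vnn1 (-1.66), Trpv6 (-1.64), Itga9 (-1.63), Chia1 (-1.61), Zfp711 (-1.48) and Il6 (-1.46) were still called.

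**Figure D2:**
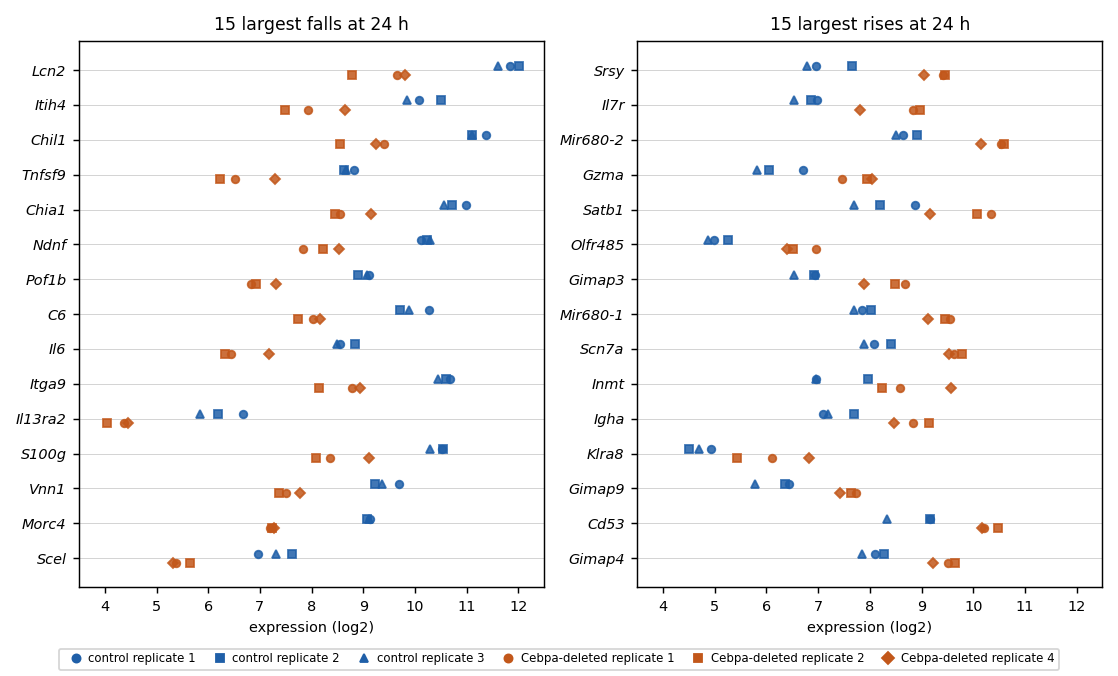
Log2 expression on each of the 6 arrays at 24 h for the 15 genes with the largest falls (left) and rises (right) among called genes whose arrays did not overlap and that were also called after quantile normalization; blue points are control and orange points Cebpa-deleted arrays, and the shape gives the replicate. For each of the 30 genes the groups are apart, from Lcn2 with a change of -2.40 to Srsy with 2.18.

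Beyond these genes the defence lists were mixed. Of 21 acute phase and secreted defence genes, 2 rose and 10 fell, with a median of -0.36, and after quantile normalization 2 rose and 8 fell with a median of -0.16; scaling to a common interquartile range turned the median to 0.42, with 6 higher and 7 lower. Lrg1, a leucine-rich acute phase glycoprotein, fell by 1.54, with means of 9.85 ± 0.54 (SD, n = 3) in controls and 8.31 ± 0.60 (SD, n = 3) in deleted cells. Saa3, a serum amyloid A, fell by 1.13 and Lyz2, a lysozyme, by 0.81, the latter from 13.49, 13.42 and 13.47 to 12.65, 12.55 and 12.75. Under the common range Lyz2 was 0.67 higher. Orm1, an acute phase lipocalin, rose by 0.59 (adjusted p = 0.0105), and by 0.48 without deleted replicate 1 (adjusted p = 0.0584).

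Of 16 complement genes 8 rose and 4 fell, with a median of 0.51, and after quantile normalization 5 rose and 4 fell with a median of 0.31. Hc, complement component 5, the target of complement-blocking drugs, read 12.98, 12.91 and 13.02 in controls and 12.23, 12.16 and 12.52 in deleted cells, a change of -0.67, and 0.71 under the common range. C7, the partner of C6 in the membrane attack complex, rose by 1.09, Serping1, the C1 inhibitor, by 0.72 and C4b by 0.57. Leaving out 1 array at a time kept Serping1 and C4b called in 4 of 6 fits. Among the upper 60 percent of genes by level, the median of the complement list was -0.06.

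Of 28 cytokine and chemokine genes 5 rose and 7 fell, with a median of 0.09, whereas after quantile normalization 7 rose and 5 fell with a median of 0.10. After Tnfsf9 and Il6 the largest falls were of Il33, an epithelial alarm cytokine (-1.32), and Il1f9, an interleukin 36 (-1.27). Cxcl5, a neutrophil attractant of type II cells, read 9.19, 7.41 and 8.84 in controls and 10.12, 9.66 and 9.81 in deleted cells. The change was 1.38 (SE 0.41, adjusted p = 0.0109), and control replicate 2 was far below the rest. Without it the change was 0.85 (adjusted p = 0.0739). Tnfsf10, the death ligand TRAIL, rose by 0.77.

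Surfactant and lamellar body genes were lower in the deleted cells as deposited. Of 14 such genes 0 rose and 12 fell, with a median of -0.72, and after quantile normalization 10 fell with a median of -0.50. Sftpd, which encodes the collectin SP-D, read 12.38, 12.63 and 12.31 in controls and 11.26, 10.86 and 11.62 in deleted cells. The groups did not overlap and the change was -1.20 (SE 0.15, adjusted p = 6.3e-05), and -0.88 after quantile normalization. Lpcat1, which makes the dipalmitoyl lecithin of surfactant, fell by 1.01, Abca3, the pump that loads lipid into lamellar bodies, by 0.95, Napsa, a protease that processes SP-B, by 0.91, and Lamp3, a lamellar body membrane protein, by 0.83.

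Sftpa1, the gene of the collectin SP-A, fell by 0.51, from 13.73, 13.80 and 13.73 to 13.24, 13.20 and 13.29. Sftpb, whose product SP-B is needed to spread the film, fell by 0.36, but the change was -0.03 (adjusted p = 0.81) after quantile normalization. Sftpc, the type II cell marker whose product SP-C is a hydrophobic surfactant peptide, read 13.82, 13.84 and 13.88 against 13.68, 13.69 and 13.70, a change of -0.16 (adjusted p = 0.0709), and is given here after its values were seen. It was at the top of all 6 arrays, where signals can saturate. Under the common range the changes of Sftpa1, Sftpb and Sftpc were 1.14, 1.20 and 1.62, that of Lpcat1 0.06, of Napsa 0.04 and of Lamp3 0.24, and the median of the surfactant list was 0.12.

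Of 20 type II cell markers 1 rose and 18 fell, with a median of -0.78, and after quantile normalization 1 rose and 13 fell with a median of -0.45; under the common range 9 rose and 2 fell and the median was 0.42. The mean level of the list was 12.07, 12.08 and 12.03 on the 3 controls and 11.36, 11.22 and 11.54 on deleted replicates 1, 2 and 4, with no overlap. Sftpa1, Sftpb, Sftpc, Sftpd, Abca3, Lamp3, Napsa, Slc34a2 and Lpcat1 are in this list and in the surfactant list, so the falls of these lists are partly the same genes. Cldn18, the tight junction claudin of alveolar cells, fell by 1.26, from 11.73, 11.80 and 11.70 to 10.41, 10.18 and 10.85, and Fgfr2, the receptor through which fibroblast growth factors maintain type II cells, by 0.99. Dlk1, a Notch ligand of type II cells, was the member that rose (0.51), but without deleted replicate 2 its change was 0.29 (adjusted p = 0.0968). Epcam, a general epithelial surface protein, fell by 0.21 (adjusted p = 0.0383) and was 0.14 higher after quantile normalization, 0.48 under the common range.

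Transcription factors of the lung epithelium were also lower: of 20, 3 rose and 16 fell with a median of -0.61, and after quantile normalization 3 rose and 8 fell with a median of -0.31. Irx1 (-1.01), Tfcp2l1, a grainyhead-like factor (-0.997), Elf5, an ETS factor (-0.76), and Etv5, an FGF-induced ETS factor of type II cells (-0.75), fell. Nkx2-1, the master regulator of lung identity and of surfactant genes, read 9.84, 9.79 and 9.78 against 9.07, 8.92 and 9.48. The groups were apart, with a change of -0.65 (SE 0.14, adjusted p = 0.00197), and of -0.30 (adjusted p = 0.0359) after quantile normalization. Foxa2, which acts with Nkx2-1, fell by 0.43, and Sox9, a factor of the distal lung bud, rose by 0.55. Under the common range 4 of the 20 rose and 7 fell with a median of -0.14, and Etv5 was at 0.08.

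Type I cell genes moved the same way, with 0 of 16 higher and 12 lower, a median of -0.68, and after quantile normalization 6 lower with a median of -0.35. Rtkn2 read 7.68, 8.68 and 7.74 in controls and 6.06, 5.89 and 6.60 in deleted cells, a change of -1.85 (SE 0.52, adjusted p = 0.00861). Igfbp2, which binds insulin-like growth factors, fell by 1.69, from rank 81.1 to 48.1, and Col4a3, a basement membrane collagen, by 0.96. Akap5, a kinase anchor, fell too, with a change of -1.27 after quantile normalization. Control replicate 2 was the highest array for Rtkn2, Igfbp2 and Akap5. Hopx fell by 0.94 and Ager, the abundant type I cell receptor RAGE, by 0.56, and neither was called after quantile normalization (-0.63 and -0.25). Without control replicate 2 Hopx was at -0.76 (adjusted p = 0.0573), and under the common range Ager was 0.56 higher. For the whole type I list 2 rose and 6 fell under the common range, with a median of -0.12. The mean level of the type I list was lower on all 3 deleted arrays than on all 3 controls, and whether fewer type I cells were in the preparation was not tested.

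Among the 47 lists, cholesterol synthesis stood lowest by its median, as deposited and after quantile normalization. Of 17 measured, 0 rose and 16 fell, with a median of -1.19, and after quantile normalization 14 fell with a median of -0.90; the ranks of 13 lay below those of all controls, as they did for 23.1% of all genes. The direction held after cyclic loess normalization (14 lower, median -0.83) and under the common range (14 lower, median -0.65). The promoters of the 3 members with the largest changes that the table holds are shown because sterol genes are known to need, beside SREBP, the factor NF-Y, which binds CCAAT, or ATTGG on the other strand; the match is in capitals, and these promoters were chosen after the values were seen.
Cyp51 (chr5:4104648-4104947, reverse strand): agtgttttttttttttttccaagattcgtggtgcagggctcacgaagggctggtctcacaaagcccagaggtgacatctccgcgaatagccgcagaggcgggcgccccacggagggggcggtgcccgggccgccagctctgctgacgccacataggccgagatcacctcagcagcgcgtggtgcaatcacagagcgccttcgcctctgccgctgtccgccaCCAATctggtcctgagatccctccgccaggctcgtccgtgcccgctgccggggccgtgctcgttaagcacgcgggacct
Lss (chr10:76531355-76531654, forward strand): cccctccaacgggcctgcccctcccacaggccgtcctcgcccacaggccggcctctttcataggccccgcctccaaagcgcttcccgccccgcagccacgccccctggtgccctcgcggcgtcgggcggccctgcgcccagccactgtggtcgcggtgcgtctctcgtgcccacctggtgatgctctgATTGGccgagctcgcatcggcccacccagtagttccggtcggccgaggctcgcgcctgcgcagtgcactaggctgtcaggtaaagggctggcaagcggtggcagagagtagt
Idi1 (chr13:8885356-8885655, forward strand): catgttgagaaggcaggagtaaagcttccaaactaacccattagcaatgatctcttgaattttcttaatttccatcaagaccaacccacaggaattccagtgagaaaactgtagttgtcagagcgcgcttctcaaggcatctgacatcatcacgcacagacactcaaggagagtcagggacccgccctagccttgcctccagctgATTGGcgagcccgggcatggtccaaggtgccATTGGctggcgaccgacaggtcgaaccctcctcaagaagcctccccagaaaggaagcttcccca
Cyp51 had the box at -29, Lss at -62 and Idi1 at -45 and -14. The box was in 13 of the 14 cholesterol genes that have a promoter there (92.86%), against 38.26% of 15563 promoters of tested genes, 40.82% of those of genes lower before and after quantile normalization and 34.68% of those higher. Ebp, the member that was not called, had 2 boxes, and Dhcr7, which was called lower, had 0. Whether the box bears on the falls was not tested. The letters TCACNCCAC, a form of the sterol element, or GTGGNGTGA on the other strand, were in 1 of the 14 and in 1.16% of promoters of tested genes.

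Cyp51, which removes a methyl group from lanosterol, read 9.86, 10.07 and 9.94 in controls and 7.85, 7.79 and 8.79 in deleted cells, a change of -1.81 (SE 0.27, adjusted p = 0.00017). Lss, which closes the sterol rings, fell by 1.71, from 9.68, 10.07 and 9.94 to 7.90, 7.79 and 8.85. Idi1, an isomerase of the isoprenoid steps, fell by 1.57. For all 3, deleted replicate 4, the array of the widest range among the deleted ones, was about 1 unit above the other 2 and still below every control. Pmvk fell by 1.45 with overlapping arrays: deleted replicate 4 was at 9.84 and control replicate 1 at 9.53. Msmo1, a sterol methyl oxidase (-1.40), Nsdhl, the next dehydrogenase (-1.38), and Hmgcs1, an early enzyme of the pathway (-1.19), fell as well. Ebp was the member that was not called, at -0.13 (adjusted p = 0.3).

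With deleted replicates 1 and 2 left out, 3 members were called and the median was -0.77, with Msmo1 at -0.94 and Hmgcs1 at -0.78. The regulators of the pathway were lower as well. Insig1, which holds SREBP in the endoplasmic reticulum and is itself a target, read 11.52, 11.58 and 11.60 against 10.04, 9.75 and 10.70, a change of -1.40. Stard4, a sterol carrier, fell by 1.18, Srebf2, the SREBP of cholesterol genes, by 0.82, Scap, its escort, by 0.73 and Srebf1, the SREBP of fatty acid genes, by 0.67. In the list of 15 sterol and lipid regulators 1 rose and 9 fell, and after quantile normalization 2 rose and 7 fell.

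Fatty acid and phospholipid genes were lower in most members. Of 17 genes of fatty acid synthesis 2 rose and 15 fell with a median of -0.77, after quantile normalization 1 rose and 10 fell with a median of -0.47, and under the common range 4 rose and 5 fell with a median of 0.14. Acsl5, which activates long chains, had a change of -1.02. Fasn, the fatty acid synthase, fell by 0.83 (0.15 higher under the common range), and Elovl6, an elongase, rose by 0.57. Of 21 phospholipid and triglyceride genes 1 rose and 16 fell with a median of -0.69, after quantile normalization 1 rose and 14 fell with a median of -0.44, and under the common range the median was -0.33.

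Fabp5, a fatty acid carrier, averaged 10.70 ± 0.26 (SD, n = 3) in controls and 9.02 ± 0.32 (SD, n = 3) in deleted cells, with no overlap and a change of -1.69 (SE 0.24, adjusted p = 0.000145). Gpam, the first acyltransferase of glycerolipid synthesis, had a change of -1.31, Plin2, the coat of lipid droplets, one of -1.27 and Lpin1, a phosphatidate phosphatase, one of -1.18. Pcyt1a, the rate-setting enzyme of phosphatidylcholine synthesis, fell by 0.59 and by 0.25 after quantile normalization (adjusted p = 0.0228). Of 17 genes of fatty acid oxidation 15 fell as deposited and 6 after quantile normalization, where the median was -0.21, among them Eci2 (-1.01 as deposited) and Acaa2 (-0.89).

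**Figure D3:**
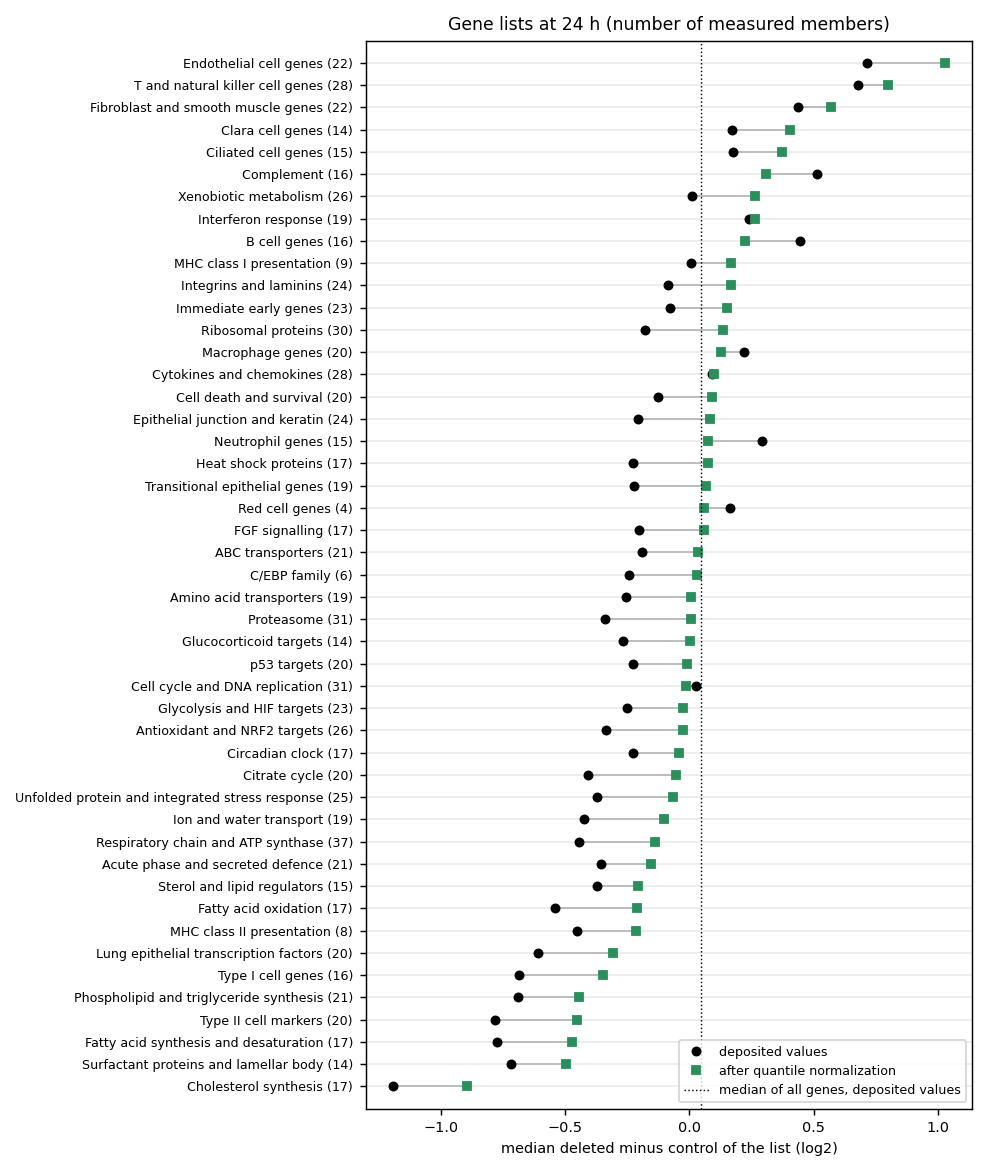
Median deleted minus control difference (log2) of each of the 47 gene lists at 24 h, as deposited (black circles) and after quantile normalization (green squares), with the number of measured members in brackets and the median of all genes as a dotted line. Cholesterol synthesis is lowest under both (-1.19 and -0.90), and the endothelial cell list has the highest median (0.71 and 1.03).

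For several lists of abundant housekeeping genes fewer members passed after quantile normalization than as deposited, and for the ribosomal list those that passed were on the other side. Of 31 proteasome genes 23 fell as deposited, with a median of -0.34, and after quantile normalization 2 rose and 1 fell with a median of 0.01; Psmd8 was the largest fall (-0.70, and -0.36 after quantile normalization). Of 37 respiratory chain genes 31 fell, with a median of -0.44, and then 1 rose and 9 fell with a median of -0.14; Ndufb3, a subunit of complex I, fell by 0.71. Of 20 citrate cycle genes 18 fell, and then 4, with medians of -0.41 and -0.06; Fh1, fumarate hydratase, fell by 0.82. Of 30 ribosomal protein genes 9 fell with a median of -0.18, and then 8 rose and 0 fell with a median of 0.14. The direction of the proteasome and ribosomal lists depended on the scaling, and that of the citrate list too, at 0.14 under the common range.

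Stress genes showed the same dependence. Of 25 genes of the unfolded protein and integrated stress response 17 fell, and after quantile normalization 3 rose and 6 fell; the median was -0.37, then -0.07, and 0.16 under the common range. Asns, asparagine synthetase, fell by 0.99, and Atf3, an early stress factor, by 0.94 (0.17 higher under the common range). Of 26 antioxidant and NRF2 target genes 2 rose and 13 fell with a median of -0.33, and after quantile normalization 5 rose and 5 fell with a median of -0.03, and it was 0.41 under the common range. Gpx1, the main cytosolic glutathione peroxidase, read 10.71, 10.70 and 10.66 in controls and 9.50, 9.21 and 10.12 in deleted cells, a change of -1.08 (SE 0.18, adjusted p = 0.000413), and -0.76 after quantile normalization. Prdx3, a mitochondrial peroxiredoxin, fell by 0.93, whereas Gpx3, the secreted glutathione peroxidase, rose by 0.86. The heat shock genes Hspa1a and Hspb1 fell by 1.37 and 1.04, Hspa1a with a wide spread in controls (11.59, 9.98 and 9.39), and the median of their list turned from -0.23 to 0.07 after quantile normalization. Of the list of glycolysis and HIF targets, Bnip3 fell by 0.97 and Hk2, hexokinase 2, by 0.86, and the list had 6 members higher and 6 lower after quantile normalization.

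Of 14 Clara cell genes 4 rose and 2 fell, with a median of 0.17, and after quantile normalization 7 rose and 2 fell with a median of 0.40. Scgb1a1, the Clara cell secretoglobin, was at 13.56, 13.59 and 13.61 in controls and 13.67, 13.68 and 13.62 in deleted cells, a change of 0.07 (adjusted p = 0.414) at the top of the arrays. Scgb3a2 rose by 0.56, Aldh1a1 by 0.37 and Cyp2f2, an airway cytochrome, by 0.24; leaving out 1 array kept these calls in 3, 0 and 1 of 6 fits. Of 15 ciliated cell genes 3 rose and 0 fell, and after quantile normalization 7 rose. In the xenobiotic list of 26 genes 4 rose and 8 fell, then 12 rose and 6 fell, with Cyp2b10 (-1.68), the aldehyde oxidase Aox3 (-1.38) and Pon1 (-1.25), an esterase that the Clara cell list also holds, lower and Fmo1, a flavin monooxygenase, higher (0.87). Aox3 (-1.13) and Pon1 (-1.20) were still called without deleted replicates 1 and 2.

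Among ion and water transport genes 2 of 19 rose and 12 fell, and after quantile normalization 3 rose and 5 fell; the median was -0.42, then -0.10, and 0.05 under the common range. Scnn1g, a subunit of the epithelial sodium channel that clears alveolar fluid, read 8.86, 9.60 and 9.17 in controls and 7.42, 7.57 and 7.79 in deleted cells, a change of -1.62 (SE 0.33, adjusted p = 0.00119), and its mean rank went from 88.2 to 64.6. Cftr, the chloride channel, fell by 1.14 and Kcne2, a potassium channel subunit, by 0.99, while Fxyd3, a sodium pump modulator, rose by 0.50. Of 24 junction and keratin genes 1 rose and 10 fell, and then 5 rose and 3 fell, with a median that turned from -0.21 to 0.08; the member that rose was Cldn4, a claudin that seals injured alveolar epithelium (0.43). Slc38a4, an amino acid transporter, fell by 1.51 with overlapping ranks.

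Of 17 FGF pathway genes 2 rose and 8 fell, then 3 and 5, and the median turned from -0.20 to 0.06. Spry1, a feedback inhibitor, fell by 1.08 and Dusp4, an ERK phosphatase, by 0.80, and Fgfr4 rose by 0.48. In the transitional epithelial list of 19 genes, which marks type II cells on the way to type I cells, 3 rose and 5 fell, and the median turned from -0.22 to 0.07 after quantile normalization; Ankrd1 fell by 1.07 and Plaur, the urokinase receptor, rose by 0.64. Of 24 integrin and laminin genes 7 rose and 6 fell, with a median of -0.09, and 0.17 after quantile normalization: Lamb3, an epithelial laminin, fell from 8.50, 8.63 and 8.38 to 7.35, 7.22 and 7.30, a change of -1.21, and Itga4, a leukocyte integrin, rose by 1.24. Of 31 cell cycle genes 3 rose and 5 fell, with a median of 0.03, and -0.01 after quantile normalization, the largest change being Bub1, a mitotic checkpoint kinase (-1.32). Col12a1, a collagen, had a change of -1.72 and Ctsz, a lysosomal cathepsin, one of -1.33, and these 2 genes were among the 4 called when the range entered the model.

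The largest rises were genes of lymphocytes, of a Y-linked repeat and of a microRNA. Srsy, a repeated gene of the Y chromosome, read 6.96, 7.66 and 6.78 in controls and 9.41, 9.46 and 9.04 in deleted cells, a change of 2.18 (SE 0.22, adjusted p = 9.62e-06). Because Srsy is a repeat, its probes may read several copies. Il7r, the interleukin 7 receptor of T cells, read 6.97, 6.86 and 6.54 against 8.84, 8.96 and 7.81, a change of 1.75 (SE 0.32), and Gzma, a granzyme of killer cells, 6.71, 6.04 and 5.82 against 7.46, 7.94 and 8.04, a change of 1.62 (SE 0.27). Satb1, a chromatin organizer of T cells, rose by 1.61, and the lymphocyte GTPases Gimap3, Gimap9 and Gimap4 by 1.55, 1.40 and 1.39. The groups did not overlap for any of these genes, and deleted replicate 4 was the lowest deleted array for all of them but Gzma.

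Mir680-2 (change 1.74) and Mir680-1 (1.52) rose together, and the RefSeq mature sequences of the pair cannot be told apart. The seed, bases 2 to 8, is in capitals.
Mir680-1 (chr6:129691541-129691561): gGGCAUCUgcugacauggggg
Mir680-2 (chrX:144297790-144297810): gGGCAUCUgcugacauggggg
The 21 bases are identical. Whether these rows read the mature form or its precursor is not given, and the precursor sequences were not compared. Olfr485, an olfactory receptor, rose by 1.58, Scn7a, a sodium channel of nerve and vessel walls, by 1.52, Inmt, a methyltransferase of lung stroma, by 1.51 (1.13 without deleted replicate 4, adjusted p = 0.053), Igha, the heavy chain of IgA, by 1.49, Klra8, a natural killer receptor, by 1.42 and Cd53, a leukocyte tetraspanin, by 1.39. Ptpn22, a phosphatase of lymphocyte signalling, went from a mean rank of 37.9 to 70.0. With the same 2 arrays left out, Klra8 (2.12), Srsy (1.91), Gzma (1.85), Mir680-2 (1.46) and Olfr485 (1.35) were still called.

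Lists of other cell types were read because the preparation may hold such cells. Of 28 T and natural killer cell genes 21 rose and 0 fell, with a median of 0.68, and after quantile normalization 18 rose with a median of 0.80. Their mean level was 6.99, 6.67 and 6.54 on the 3 controls and 7.65, 7.63 and 7.31 on deleted replicates 1, 2 and 4, with no overlap. Il2rb, a receptor chain for interleukin 2, rose by 1.15, Lef1, a T cell factor, by 1.10 and Ccr7, a homing receptor, by 1.05. Cd3e, the defining chain of the T cell receptor complex, rose by 0.74 (adjusted p = 0.0148) but its arrays overlapped: deleted replicate 4 was at 7.35 and control replicate 1 at 7.50, and 3 of 6 fits without 1 array kept the call. Of 16 B cell genes 10 rose and 0 fell with a median of 0.44, and after quantile normalization 5 rose and 0 fell with a median of 0.22. Under the common range 5 rose and 1 fell with a median of 0.13. Ighm and Blk were both at 0.90 as deposited. The B cell list averaged 6.276 to 6.797 on the 6 arrays. In the classes of genes from 6.106 to 6.554 and from 6.555 to 7.028 by mean level, 896 of 1993 and 678 of 1994 were called higher as deposited.

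Of 22 endothelial cell genes 19 rose and 1 fell, with a median of 0.71, and after quantile normalization 18 rose and 1 fell with a median of 1.03. Their mean level was 8.00, 8.59 and 8.22 in controls and 8.86, 8.94 and 8.97 in deleted cells. Calcrl, an adrenomedullin receptor, read 9.18, 9.52 and 9.15 against 10.48, 10.65 and 10.34, a change of 1.21 (SE 0.21, adjusted p = 0.000457). Tek, the angiopoietin receptor, rose by 1.15, S1pr1 by 0.996 and Kdr, the main VEGF receptor, by 0.96. Esam, an endothelial adhesion molecule also found on epithelium, was the member that fell (-0.71). The median endothelial difference was 0.93 at 0 h and 0.98 at 2 h. The test against 0 h called 2 of the 22 and that against 2 h called 1, in each case lower at 24 h.

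Of 22 fibroblast and smooth muscle genes 11 rose and 2 fell, with a median of 0.44, and after quantile normalization 11 rose and 3 fell with a median of 0.57. Dcn, the stromal proteoglycan decorin, rose by 1.25 and Pdgfra, a growth factor receptor of alveolar fibroblasts, by 1.24, from 6.14, 6.32 and 6.32 to 7.24, 7.48 and 7.76. Npnt, a matrix protein that type I cells also make, fell by 1.10, and Col6a1, a collagen VI chain, fell by 1.47, from 9.42, 9.54 and 9.86 to 8.08, 8.06 and 8.27. Of 20 macrophage genes 5 rose and 2 fell, and after quantile normalization 3 rose and 1 fell, among them C1qa (0.54), Trem2 (0.53) and Cd68 (-0.65, and -0.37 with an adjusted p of 0.133 after quantile normalization), and of 15 neutrophil genes 5 rose and 0 fell, with 1 after quantile normalization and a median of -0.07 under the common range. Of 19 interferon response genes 5 rose and 1 fell, then 4 and 1, with Gbp3, a guanylate-binding protein, at 0.96. The shares called higher as deposited were 25% for the macrophage, 33.3% for the neutrophil and 26.3% for the interferon list, against 24.3% of all genes. The neutrophil list averaged 5.725 to 6.063 on the 6 arrays. In the class of genes from 5.575 to 6.106 by mean level, 936 of 1994 were called higher. Of 9 genes of MHC class I presentation 1 rose and 2 fell with a median of 0.01, and after quantile normalization 4 rose and 0 fell with a median of 0.17; the member that rose as deposited was Nlrc5, an activator of these genes (0.96). Of 8 genes of MHC class II presentation 2 rose and 3 fell with a median of -0.45, and then 1 rose and 0 fell with a median of -0.21, but 0.26 under the common range. How far lymphocytes, endothelial cells or fibroblasts in the preparations carry these rises, or their share of RNA lowers the epithelial genes, was not tested.

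**Figure D4:**
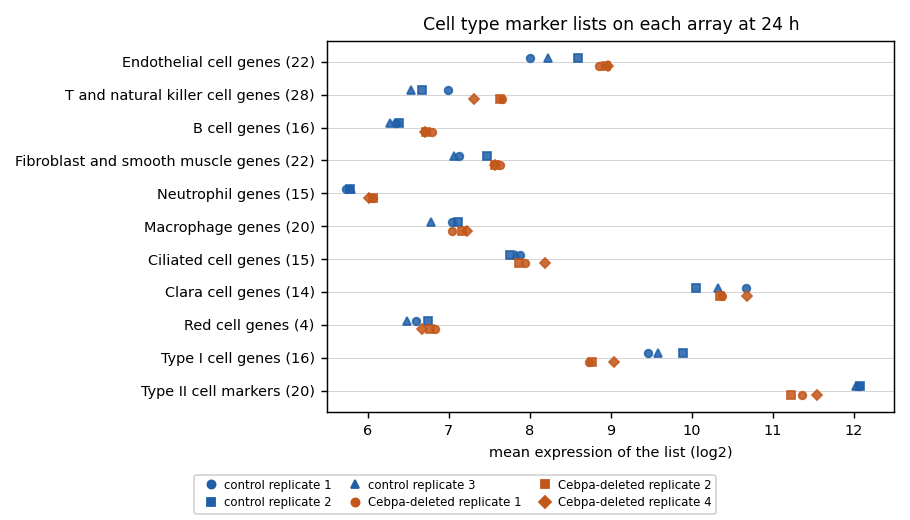
Mean log2 expression of each cell type marker list on each of the 6 arrays at 24 h, with the number of measured genes in brackets; blue points are control and orange points Cebpa-deleted arrays. As deposited, the deleted arrays lie above the controls for the endothelial, T and natural killer, B cell, fibroblast and neutrophil lists. They lie below them for the type I and type II cell lists. After quantile normalization the median changes of these 7 lists, in the order named, were 1.03, 0.80, 0.22, 0.57, 0.07, -0.35 and -0.45.

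The genotype difference was also compared between times. At 0 h 171 genes were called (0.858%) and at 2 h 280 (1.4%). Tests of the difference of the differences called 2859 genes for 24 h against 0 h (14.3%), 1089 higher (5.46%) and 1770 lower (8.88%), and 6138 for 24 h against 2 h (30.8%), 2858 higher (14.3%) and 3280 lower (16.5%); 2329 genes were called in both. These tests share the 24 h arrays, and the range of the arrays also differed between times. After quantile normalization they called 1213 and 2595 genes, and without deleted replicates 1 and 2, 0 (2172 at an unadjusted p below 0.05 in limma) and 2 genes. Without deleted replicate 2 alone the counts were 278 and 2563, without deleted replicate 1 they were 405 and 3257, without control replicate 1 they were 1077 and 3798, and without deleted replicate 4 the first was 5828; control replicates 2 and 3 left out gave 1499 and 1197 against 0 h.

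Cebpa differed by -0.43 at 0 h, -1.10 at 2 h and -1.83 at 24 h. As deposited, the 24 h value was lower than both others (limma adjusted p = 0.0075 against 0 h and 0.037 against 2 h). With the array interquartile range as a covariate, 1 gene of all tested was called against 0 h and 0 against 2 h. Lcn2 differed by -0.33, -0.84 and -2.40. Chil1, at 0.13 and -0.25 at the earlier times and -2.12 at 24 h, had one of the largest differences between times, -2.25 against 0 h. Rtkn2 went from 0.71 at 0 h to -1.85, a difference of -2.56 that was the largest toward lower values against 0 h, and 2 h (-0.30) was not called against 24 h. Sema3a, a guidance molecule, differed by 1.36 at 0 h, 1.25 at 2 h and -1.06 at 24 h (adjusted p = 0.0226), and both shifts between times were called, although only 3 of 6 fits without 1 array kept the 24 h call. Fbp2, a gluconeogenic phosphatase, went from 0.62 and 0.26 to -1.56.

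In the cholesterol list the median difference was 0.03 at 0 h and -0.25 at 2 h, and the tests called 13 of 17 members lower at 24 h than at 0 h and 11 lower than at 2 h. Cyp51 differed by -0.06, -0.47 and -1.81 at the 3 times and Msmo1 by 0.00, -0.25 and -1.40. For surfactant and lamellar body genes the medians were -0.09 and -0.04 at the earlier times, and 9 and 11 of 14 members were called lower at 24 h. Type I cell genes had medians of 0.16 and 0.06 before, and 10 and 11 of 16 were called lower at 24 h. These list counts are as deposited, where 8.88% and 16.5% of all genes were called lower. The proteasome list, whose 24 h median was 0.01 after quantile normalization, had 16 of 31 members called lower in each test. How many of these list calls hold after quantile normalization was not tested. The T and natural killer list had medians of 0.11 and 0.27, and 2 of 28 members were called higher at 24 h in each test. Among the rises Srsy had a difference of -0.87 at 2 h, and Scn7a had 1.21 at 0 h and 1.65 at 2 h beside 1.52 at 24 h, with shifts between times of 0.32 and -0.12 that were not called.

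**Figure D5:**
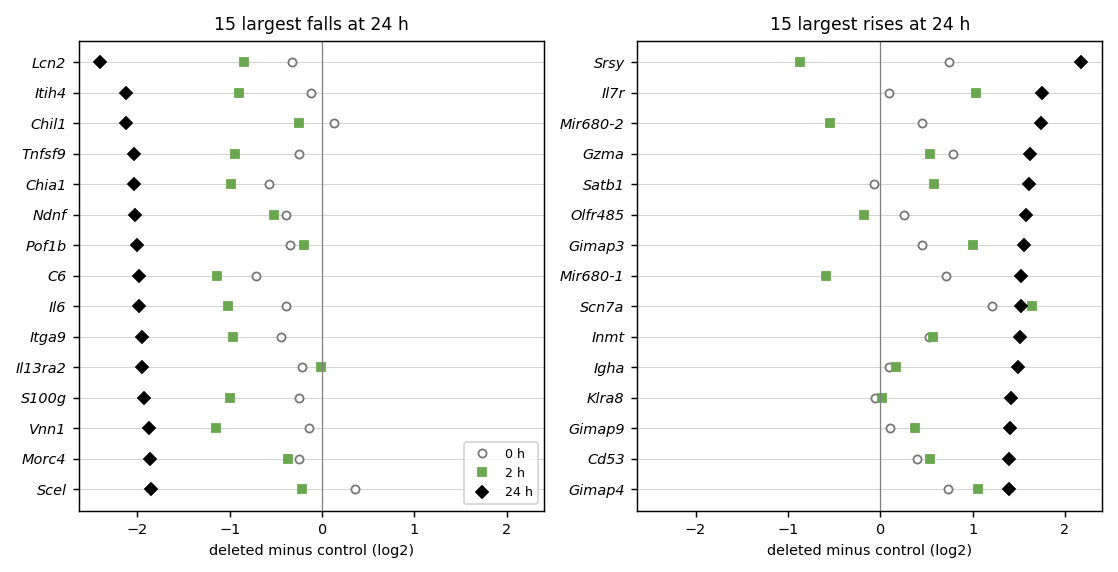
Deleted minus control difference (log2) at 0 h (open circles), 2 h (green squares) and 24 h (black diamonds) for the 15 genes with the largest falls (left) and the 15 with the largest rises (right) at 24 h, chosen by their 24 h value. The falls at 24 h lie between -2.40 and -1.85, beyond each of the earlier values, while Scn7a is higher at 2 h than at 24 h.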

How the data were processed

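RNA from isolated mouse alveolar type II cells, taken up in guanidinium thiocyanate, was hybridized to 18 arrays, 1 for each sample and 3 for each group. The values deposited by the authors are log2 expression. The submitters' processing notes name RMA as the tool. Its version, the arrays it normalized together, any filter and the genome build are unstated, so a different range of values between arrays can stem from the processing or from the samples. The small number of arrays limits the precision, and no batch is recorded in the labels.

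Of 35557 rows, 21789 carried 1 gene symbol in the platform annotation, 1621 several and 12147 none. Rows with 1 symbol were used, and 21698 of them had their symbol updated by Entrez identifier. Where a gene had several rows (999 genes), the row with the highest mean across the 18 arrays stood for it. This left 19938 genes, none removed for low level. One model with 6 group means was fitted to the 18 arrays (limma 3.58.1, lmFit and eBayes, R 4.3.3). Two-sided p-values were adjusted across the genes (Benjamini-Hochberg), with 0.05 as threshold. The fit was tested on simulated data. In those data no difference of range was put between the 24 h groups, so they cannot show how the fit behaves under one.

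The members, the 47 gene lists (1004 entries, 923 measured) and the tests were chosen with earlier results of these data known. The rule for named genes took the C/EBP family; up to 15 falls and 15 rises, the largest whose arrays did not overlap and that passed with and without quantile normalization; up to 10 shifts of rank each way; up to 6 members of each list, with any against its majority; and up to 5 genes each way for differences between times. Fewer were printed, and genes with RIKEN or predicted names were left aside. Outside this rule Sftpc, Epcam, Scgb1a1, Cd3e, Srebf1, Pcyt1a, Hmgcs1, Ebp, Col12a1, Ctsz, Vsig2, the Y-linked genes and Xist were chosen after their values were seen.

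Each result was recomputed with quantile normalization, median centring, centring to a common interquartile range, percentile ranks, only the arrays of the times compared, a replicate block, the interquartile range as covariate, the mean of a gene's rows, the upper 60 percent of genes, trended robust eBayes, and each 24 h array left out. Cyclic loess and leaving out deleted replicates 1 and 2 were added after the data were seen. Promoters and microRNAs are from RefSeq tables of GRCm38.p6, the promoters matched by Entrez identifier and the microRNAs by symbol. Deviations from the group means correlated at 0.052 and 0.058 for the 2 replicate numbers both genotypes share and at -0.122 to 0.068 for other pairs. With only 2 shared numbers these values cannot tell whether the numbers pair the arrays, and the model did not pair them.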

Additional observations from a re-analysis of the deposited data

Results flagged for a closer look

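The genotype difference at 24 h differed from that at 0 h for 2859 genes and from that at 2 h for 6138 genes by the interaction tests in limma. Named genes were looked at again where both tests passed, and the values below are the log2 difference at 24 h minus that at 2 h. The furthest toward lower values at 24 h were Sema3a -2.31, Il13ra2 -1.93, Chil1 -1.87, Fbp2 -1.81, Pof1b -1.81, Scel -1.63, Zfp711 -1.62, Npnt -1.59, Igfbp2 -1.59, Cped1 -1.56 and Lcn2 -1.56. They were followed by Ndnf -1.50, Morc4 -1.49, Col12a1 -1.38, Lss -1.36, Cyp51 -1.34, Trpv6 -1.24, Itih4 -1.23, Msmo1 -1.15, Plin2 -1.15, Stard4 -1.13, Idi1 -1.13, Lpin1 -1.12, Asns -1.11, Tnfsf9 -1.10, Nsdhl -1.06, Ctsz -1.05, Chia1 -1.05 and Eci2 -1.05. A smaller shift to lower values was found for Napsa -0.99, Itga9 -0.99, Tfcp2l1 -0.96, Insig1 -0.96, Il6 -0.96, Prdx3 -0.96, Fabp5 -0.93, Gpx1 -0.91, Hmgcs1 -0.89, Hspb1 -0.88, Hk2 -0.88, Ankrd1 -0.87, Col4a3 -0.86, C6 -0.84, Saa3 -0.82, Col6a1 -0.79 and Atf3 -0.79. The least of these shifts were Psmd8 -0.75, Acaa2 -0.74, Dusp4 -0.73, Cebpa -0.73, Cebpg -0.72, Esam -0.71, Sftpd -0.71, Srebf2 -0.68, Ager -0.68, Cldn18 -0.66, Lamp3 -0.64, Abca3 -0.63, Fh1 -0.63, Acsl5 -0.63, Lpcat1 -0.56, Lyz2 -0.56, Lamb3 -0.55, Pcyt1a -0.53, Scap -0.52 and Sftpa1 -0.46. Toward higher values at 24 h the genes were Srsy 3.04, Mir680-2 2.28, Olfr485 1.76, Klra8 1.40, Igha 1.32, Nlrc5 1.15, Gimap9 1.03, Ptpn22 0.98, Pdgfra 0.95, Blk 0.89 and Trem2 0.68. With deleted replicates 1 and 2 left out, the tests called 0 and 2 genes of all tested, and the part of the array range in these shifts was not tested further.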

How the results depend on the processing

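The counts of genes at 24 h, of genes differing from 0 h and of genes differing from 2 h were 10110, 2859 and 6138. After quantile normalization they were 6697, 1213 and 2595, on percentile ranks 6307, 803 and 2298, and after cyclic loess normalization 4897, 463 and 1187. With the array interquartile range as a covariate they were 4, 1 and 0, with 1561, 1521 and 1774 genes at an unadjusted p below 0.05 in limma. Without deleted replicates 1 and 2 they were 217, 0 and 2, with 4066, 2172 and 3569 genes at an unadjusted p below 0.05. The replicate number as a block gave 7918, 775 and 3638, although it is not known whether the numbers pair the arrays. The arrays of the times compared alone gave 4441 genes against 0 h. A least change of 1.5-fold left 2579 genes at 24 h, and the upper 60 percent of genes gave 4073 against 2 h, where fewer genes were tested. Leaving out 1 array gave 6128 to 10988, 278 to 5828 and 2563 to 8383. The other settings left these counts within 1.5 times. Cebpa kept its direction under each setting and lost its call with the range covariate alone, at -1.30; without 1 array it was -1.94 to -1.74. Of 164 named genes 156 were called. Of these, 149 were also called after quantile normalization, 145 after cyclic loess and 140 in every fit without 1 array. Without deleted replicates 1 and 2 all 156 kept their sign. Many were named because they passed with quantile normalization or had arrays that did not overlap, so these counts are raised by the choice. Under median centring and a common interquartile range the direction turned for Lyz2 0.67, Hc 0.71, Lpcat1 0.056, Napsa 0.036, Lamp3 0.24, Sftpa1 1.14, Sftpb 1.20, Sftpc 1.62, Epcam 0.48, Etv5 0.076, Ager 0.56, Fasn 0.15, Atf3 0.17 and Xist 0.49, and with the range covariate for Vsig2 0.83, Ddit3 0.046, Lrg1 0.56, Orm1 -0.0061, Dlk1 -0.0036, Irx1 0.17, Elf5 0.17, Nkx2-1 0.10, Pmvk 0.25, Fasn 0.20, Prdx3 0.055, Cldn4 -0.0028, Plaur -0.10, Lef1 -0.069, Cd3e -0.21, Uty 0.11 and Kdm5d 0.19. Epcam was also 0.14 higher after quantile normalization, 0.69 percentile points on ranks and 0.16 after cyclic loess. The cause of these changes was not tested. Signal over background could not be judged, since the deposited values give no background.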

Other observations

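The Y-linked genes, looked at after their values were seen, moved apart. Eif2s3y, a translation factor subunit, read 7.48, 8.14 and 7.83 in controls and 7.02, 6.95 and 7.29 in deleted cells, a change of -0.73 (adjusted p = 0.00388 in limma). Uty, a histone demethylase relative, fell by 0.88 and Kdm5d, a histone demethylase, by 0.51, though Kdm5d lost its call without control replicate 1 (-0.47, adjusted p = 0.0586) and without deleted replicate 2 (-0.37, adjusted p = 0.107), whereas Srsy on the same chromosome rose by 2.18. Xist, the RNA of the inactive X chromosome, read 9.26, 8.97 and 9.48 against 9.26, 9.20 and 9.13, a change of -0.04 (adjusted p = 0.821). The sex of the mice is not given in the labels used here.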
